A study of Aspergillus cristatus with 9 samples.

Results

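The genes described here are the cell cycle and meiosis genes of the golden flower fungus *Aspergillus cristatus*, as the deposited gene table annotates them. They were found by their KEGG pathway codes. A gene was taken when it held KEGG's yeast cell cycle map or its yeast meiosis map, and genes that also held the codes for MAP kinase signalling, ubiquitin-mediated proteolysis, the proteasome, DNA replication or DNA repair were left out. This gave 116 of the 10227 listed genes, from 174 that held either map. Of the 116 genes, 35 held only the cell cycle map, 50 only the meiosis map and 31 both. The rule itself used no expression value, although earlier results of these data were known when it was set. The question was how these genes were expressed in fungus collected from ginseng roots compared with fungus that had not met a root.

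The 9 RNA libraries came from *A. cristatus* strain JLU, with 3 libraries for each of the groups EcCK, EcRS and EcSQ, all from one strain with no other allele or agent named. In EcCK, the control, the fungus was grown for 10 days on potato dextrose agar plates and did not meet a root. In EcRS, fungus from such plates was then kept on sterilized roots of *Panax ginseng* at 28 °C for 1 week, and in EcSQ on sterilized roots of *Panax notoginseng* under the same conditions. The labels call all samples mycelium and give all the same age, whereas the methods of the study describe the EcCK material as spores taken from plates. Medium, growth stage and total culture time changed together with root contact and cannot be told apart from it. No incubation temperature is given for EcCK, so temperature may have differed as well. The sources do not say whether the 3 libraries of a group were separate cultures, so the p-values measure only the spread between libraries, which may be technical.

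Dividing cells copy their chromosomes once and then separate the copies. Origins of replication are first bound by the origin recognition complex and CDC6, then fired by the kinase CDC7 with its partner DBF4 and by CDC45. Cohesin holds the new sister chromatids together, condensin compacts them, and the spindle checkpoint (the BUB and MAD proteins) delays the cut of cohesin by separase until every chromosome is attached. Leaving mitosis and laying down the cross wall, or septum, depends on a kinase cascade with TEM1, CDC15, DBF2, MOB1 and the phosphatase CDC14. In meiosis, SPO11 cuts the chromosomes and DMC1 pairs the broken ends with the partner chromosome, under regulators such as IME2 and NDT80. In filamentous *Aspergillus* species nuclear division goes on in growing hyphae and in spore formation, whereas resting conidia are arrested, and meiosis takes place in the closed fruiting bodies that give the golden flower fungus its name. Most of these roles were worked out in yeasts, and the gene names used here are those of the yeast orthology codes in the table. Only a few members are named directly in the table's own descriptions, among them DMC1, MAD2, SMC2, *stuA*, *sepH*, *sid2*, *sudA* and separin.

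Levels are given as FPKM, a read count scaled for gene length and for library size, in the order of replicates 1, 2 and 3. Differences are log2 fold changes ± standard error from edgeR, fitted on the estimated counts of all genes that averaged 1 FPKM or more in the compared libraries. A gene was called up- or down-regulated when it changed at least 2-fold with an adjusted p of at most 0.05. Estimated counts in listed genes summed to between 45891944 and 61627866 per library. The share of mapped units outside the listed genes was 23.1% to 26.9% in EcRS, 12.1% to 14.1% in EcCK and 12.1% to 14.9% in EcSQ, and its part in the results was not tested. Replicate 3 of EcSQ stood apart from the other EcSQ libraries, as shown at the end. Of the genes whose descriptions name regulators or proteins of conidia, 4 were listed (*abaA*, *brlA*, a rodlet protein and conidiation-specific protein 10). None was at 0, and their summed level was 466 to 2640 FPKM in EcCK, 3035 to 4362 in EcRS and 3970 to 6157 in EcSQ, nearly all of it from the rodlet protein. In EcRS against EcCK, 1 of these 4 genes (*abaA*) was down-regulated and none up-regulated. The 139 genes with gene ontology terms for conidium formation or asexual sporulation summed to 17507 to 21381 FPKM in EcCK, 18454 to 20914 in EcRS and 18226 to 24623 in EcSQ, and 47 of 136 tested were down-regulated and 15 up-regulated in EcRS. The 3 genes described as sexual regulators (*nsdD*, *steA* and *MAT1-1*) summed to 90.8 to 218 FPKM in EcCK, 78.2 to 126 in EcRS and 147 to 281 in EcSQ, with none at 0, *MAT1-1* up- and *nsdD* down-regulated in EcRS. The 95 genes with gene ontology terms for ascospores or sexual fruiting bodies summed to 5297 to 9849 FPKM in EcCK, 9275 to 10900.3 in EcRS and 10452 to 12124 in EcSQ, and 26 of 93 tested were down-regulated and 12 up-regulated. What part a different mix of spores and hyphae had in the results below was not tested, and in these bulk samples fewer cells of a type and less RNA per cell cannot be told apart.

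On *P. ginseng*, more cell cycle and meiosis genes were lower than higher. Of the 109 members tested in EcRS against EcCK, 51 were down-regulated and 10 were up-regulated, 48 did not pass, and 7 were below the level filter. Among all 8925 genes tested, 47.6% were down-regulated and 12.8% up-regulated, so the members' shares (46.8% and 9.17%) lay near the background. The members' median log2 fold change was -0.80 beside -0.96 for all genes. With TMM scaling, which assumes that most genes keep their level, the all-gene median moved to -0.11 and the members' median to 0.05, and 37 members were down-regulated and 25 up-regulated (all genes 31.4% and 26.4%). All 10 up-regulated members kept that call under TMM, and 37 of the 51 down-regulated members kept theirs, while none was called in the opposite direction. The 3 EcRS libraries all lay below the 3 EcCK libraries in 59 members (54.3% of all genes tested) and all above in 15 (18.3%).

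The members are unlike each other in role. Of the 116, 29 are sugar transporters of the hexose transporter family (orthology code K08139), which KEGG places in the yeast meiosis map and which are not parts of the division machinery. Glucose is known to hold back meiosis in budding yeast. Without them 86 members were tested, 35 (40.7%) were down-regulated and 7 (8.14%) were up-regulated, beside 47.6% and 12.8% of all genes. Under TMM scaling the counts were 24 and 20, beside 31.4% and 26.4% of all genes. These shares of all genes also stand beside the counts by map and role below. The other genes of both maps, the 58 that the rule left out, had 17 down-regulated (31.5%) and 8 up-regulated (14.8%) among 54 tested. Their median was -0.46 (8, 15 and a median of 0.42 under TMM scaling). By map, 13 of the 35 tested genes with the cell cycle map alone were down-regulated and 1 was up-regulated. Of the 30 tested genes with both maps, 15 were down-regulated and 2 up-regulated. Of the 21 genes with the meiosis map alone that are not sugar transporters, 7 were down-regulated and 4 up-regulated.

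**Figure D1:**
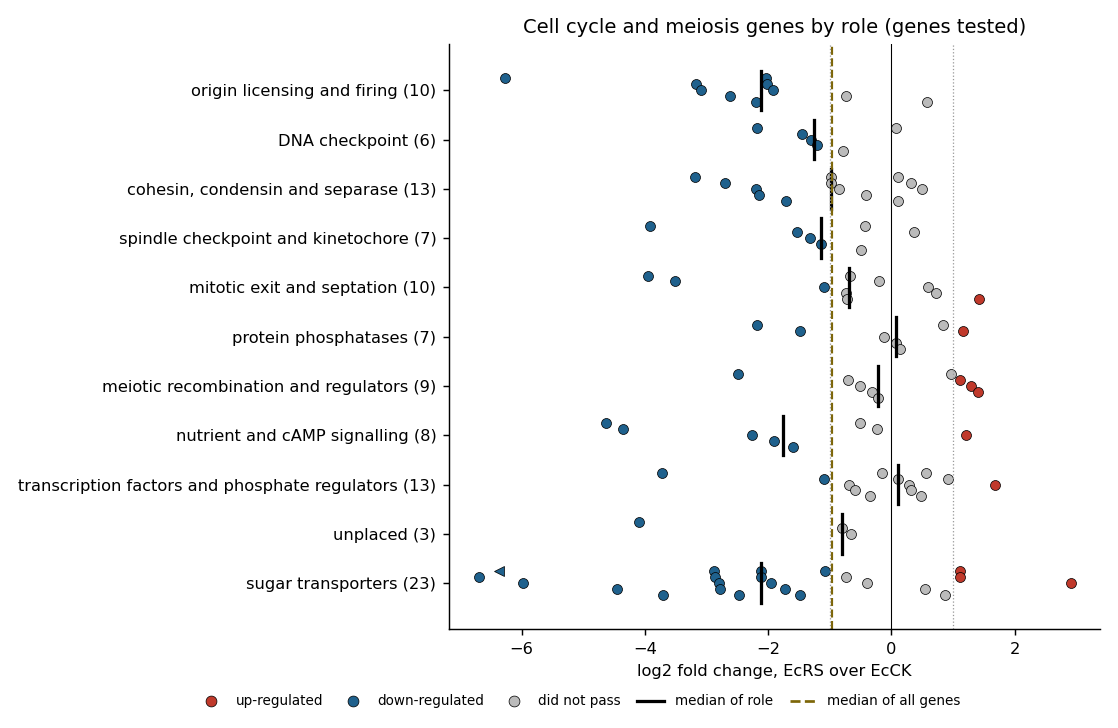
Log2 fold change of EcRS over EcCK (x axis) for the 109 tested members, one point each, grouped by role with the number tested in brackets. Short black bars are role medians, the dashed line is the median of all genes (-0.96), and the dotted lines mark a 2-fold change. The triangle is a gene with no count in EcRS, drawn with 3 counts put in place of each 0. Origin genes and sugar transporters have the lowest medians (both -2.12), under the per-million scaling.

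Most of the genes that mark and fire replication origins were lower on *P. ginseng*. Of 10 tested, 8 were down-regulated (80%, all genes 47.6%) and none was up-regulated, with a median log2 fold change of -2.12. Under TMM scaling the same 8 were down-regulated and ORC5 was called up-regulated. *ORC1* (SI65_02801, contig 2, positions 1751294 to 1753789), the subunit that binds ATP and recruits the licensing factors, stood at 2.85, 4.49 and 13.3 FPKM in EcCK and at 0.0160, 0.0737 and 0.163 in EcRS. In EcSQ it stood at 8.39, 2.85 and 0.278. The EcRS libraries were thus far below every EcCK library, and replicate 3 of EcSQ was close to them. The log2 fold change of EcRS over EcCK was -6.28 ± 0.89 (edgeR adjusted p = 0.0003), but it rests on 3, 12 and 26 estimated counts in the EcRS libraries, so its size is imprecise.

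*CDC45* (SI65_08341, contig 12, positions 453251 to 455865), which joins the replicative helicase when an origin fires, had 3.47, 4.04 and 7.22 FPKM in EcCK, 0.541, 0.347 and 0.730 in EcRS and 12.7, 19.6 and 1.91 in EcSQ. Its log2 fold change in EcRS was -3.18 ± 0.45 (edgeR adjusted p = 0.00028), and the EcRS libraries did not overlap those of EcCK. The other genes of this group that fell had edgeR adjusted p of 0.00034 to 0.0027. *ORC4* (SI65_08074) had 4.49, 6.64 and 9.50 FPKM in EcCK and 0.484, 0.803 and 1.14 in EcRS, a log2 fold change of -3.08. *ORC6* (SI65_04361), *ORC2* (SI65_09112) and *ORC3* (SI65_04842) had log2 fold changes of -2.62, -2.04 and -2.01. Both partners of the origin-firing kinase fell, with log2 fold changes of -2.19 for *DBF4* (SI65_07005) and -1.92 for *CDC7* (SI65_06204).

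A pair of origin genes did not pass. *ORC5* (SI65_09227), a subunit of the same complex, had 27.5, 37.7 and 59.4 FPKM in EcCK and 48.2, 65.7 and 71.1 in EcRS, with overlapping groups, a log2 fold change of 0.57 ± 0.33 and an edgeR adjusted p of 0.15. Its listed coding length of 4530 bases was the longest among the origin genes. *CDC6* (SI65_07595), which loads the helicase together with the complex, had 5.88, 8.61 and 13.7 FPKM in EcCK and 5.14, 5.15 and 6.71 in EcRS and did not pass (log2 fold change -0.73 ± 0.36, edgeR adjusted p = 0.097).

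**Figure D2:**
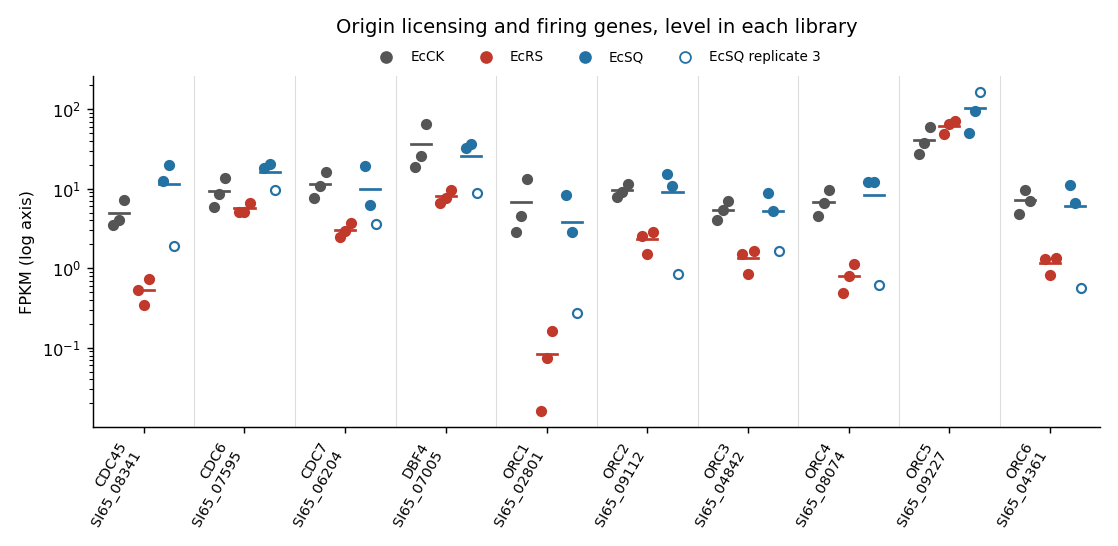
FPKM (log axis) of the 10 origin licensing and firing genes in each of 9 libraries. Points are libraries, bars are group means, and open circles are EcSQ replicate 3. In 8 genes the EcRS points lie below all EcCK points, while *ORC5* and *CDC6* overlap, and EcSQ replicate 3 lies near EcRS in most genes.

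DNA damage and replication checkpoint genes, which stop division while DNA is incomplete or broken, were also measured. Of 6 tested, 4 were down-regulated (66.7%, all genes 47.6%) and none was up-regulated. Under TMM scaling 1 remained (all genes 31.4%). The gene that remained was SI65_08772, of the RAD24/RAD17 type that loads the checkpoint clamp, with 4.77, 6.76 and 9.55 FPKM in EcCK and 1.58, 1.46 and 1.61 in EcRS (log2 fold change -2.18 ± 0.34, edgeR adjusted p = 0.00051). A kinase of the CHK2 type (SI65_05815), which relays the damage signal, had 139, 140.1 and 103 FPKM in EcCK and 35.1, 58.6 and 46.8 in EcRS, and 46.9, 33.0 and 64.9 in EcSQ. It fell by 1.44 on the log2 scale in EcRS (edgeR adjusted p = 0.0016, 0.093 with TMM). A checkpoint clamp component (SI65_00320) and a further gene with the RAD24/RAD17 code (SI65_01457), whose gene ontology terms name no function, fell with log2 fold changes of -1.30 and -1.21. *CHK1* (SI65_00537), the other effector kinase, had 9.92, 6.78 and 12.2 FPKM in EcCK and 11.9, 10.5 and 7.96 in EcRS, and its groups overlapped. A short gene with the CHK1 code (SI65_04007) was at 0 in every EcCK and EcRS library and was not tested.

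In the group of cohesin, condensin and separase, 5 of 13 genes were down-regulated in EcRS and none was up-regulated. The down-regulated share (38.5%) was below that of all genes (47.6%). Under TMM scaling 4 were down-regulated and 2 up-regulated (all genes 31.4% and 26.4%). *SCC3* (SI65_04553), a subunit that attaches cohesin to chromatin, had 22.5, 32.9 and 44.7 FPKM in EcCK, 3.11, 2.30 and 5.52 in EcRS and 31.5, 43.1 and 4.25 in EcSQ. The EcRS change was, in log2, -3.19 ± 0.41 (edgeR adjusted p = 0.00018), and every EcRS library was below every EcCK library. Of the other cohesin genes, 1 passed. The ring subunit *SMC3* (*sudA*, SI65_03738) fell by 1.71 on the log2 scale, a call that was lost with TMM scaling (-0.85) and DESeq2 (-0.83), and its partner *SMC1* (SI65_10319) had -0.99, just short of 2-fold. *SCC1* (SI65_08704), the subunit that separase cuts, had 36.9, 40.2 and 59.2 FPKM in EcCK and 54.6, 64.3 and 73.4 in EcRS, a log2 fold change of 0.50 ± 0.27 that did not pass (edgeR adjusted p = 0.13). *SCC2* (SI65_08650), which loads cohesin, had -0.41 and did not pass.

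Of the 5 condensin genes, 3 fell. *SMC4* (SI65_07349) had 10.0, 13.8 and 19.6 FPKM in EcCK, 1.79, 2.17 and 2.73 in EcRS and 20.7, 16.5 and 3.92 in EcSQ, with a log2 fold change in EcRS of -2.70 ± 0.33 (edgeR adjusted p = 0.00013). *SMC2* (SI65_08069) fell with a log2 fold change of -2.20 and the YCG1-type subunit (SI65_04303) with -2.14. The EcRS libraries lay below all EcCK libraries in each of these 3 genes. The BRN1-type subunit (SI65_07551) had a log2 fold change of -0.86 and the YCS4-type subunit (SI65_06203) of 0.31, and neither passed, although with TMM scaling the YCS4-type subunit was called up-regulated at 1.21, as was *SCC1* at 1.35. Among the 3 genes with the separase code, only SI65_05037 is described as separin, and it had 2.16, 2.30 and 4.46 FPKM in EcCK and 1.33, 1.29 and 1.92 in EcRS (log2 fold change -0.97). The other 2, SI65_04919 and SI65_05029, carry gene ontology terms for NAD binding and histone deacetylation and for nucleic acid binding in place of a protease, and had log2 fold changes of 0.11 and 0.11. Leaving out single libraries (EcCK replicate 1 or 2, or EcRS replicate 3) brought SI65_05037 and *SMC1* past the threshold, at -1.18 to -1.13 and -1.17 to -1.06, and leaving out EcCK replicate 1 or EcRS replicate 3 did so for the BRN1-type subunit, at -1.05 and -1.06.

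Of the 7 spindle checkpoint and kinetochore genes, 4 were down-regulated in EcRS (57.1%, all genes 47.6%) and none was up-regulated. TMM scaling left 1 down-regulated (all genes 31.4%) and called *MAD2* up-regulated. *BUB3* (SI65_05189, contig 4, positions 2301975 to 2303158), which carries checkpoint proteins to unattached kinetochores, had 16.0, 15.9 and 19.4 FPKM in EcCK and 0.708, 1.11 and 1.56 in EcRS. In EcSQ it had 30.6, 13.6 and 0.405. Replicate 3 of EcSQ was thus below all EcRS libraries. The log2 fold change of EcRS over EcCK was -3.91 ± 0.39 (edgeR adjusted p = 4.8e-05), and *BUB3* was the gene that kept its call under TMM.

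The other falls of the spindle checkpoint were smaller and depended more on the processing. *BUB2* (SI65_01705), which restrains mitotic exit, had 14.7, 21.6 and 38.9 FPKM in EcCK and 7.31, 8.05 and 10.6 in EcRS, a log2 fold change of -1.54 ± 0.38 (edgeR adjusted p = 0.0061, 0.059 with TMM). *MAD1* (SI65_05230), which holds MAD2 at kinetochores, fell by 1.14 (edgeR adjusted p = 0.014), and the call was lost without EcCK replicate 3 (-0.87) and without EcRS replicate 1 or 2 (-1.11 and -1.03). The checkpoint kinase *BUB1* (SI65_07128) had 3.74, 6.82 and 18.6 FPKM in EcCK and 3.41, 3.64 and 4.60 in EcRS, so the groups overlapped. Its call (log2 fold change -1.32 ± 0.52, edgeR adjusted p = 0.049) was lost without EcCK replicate 3 (-0.44) and without any one EcRS library (-1.46 to -1.24). Values for the kinase *MPS1* (SI65_10160), a DASH complex component (SI65_00493) and *MAD2* (SI65_09778) were -0.42, -0.49 and 0.37, and none passed.

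**Figure D3:**
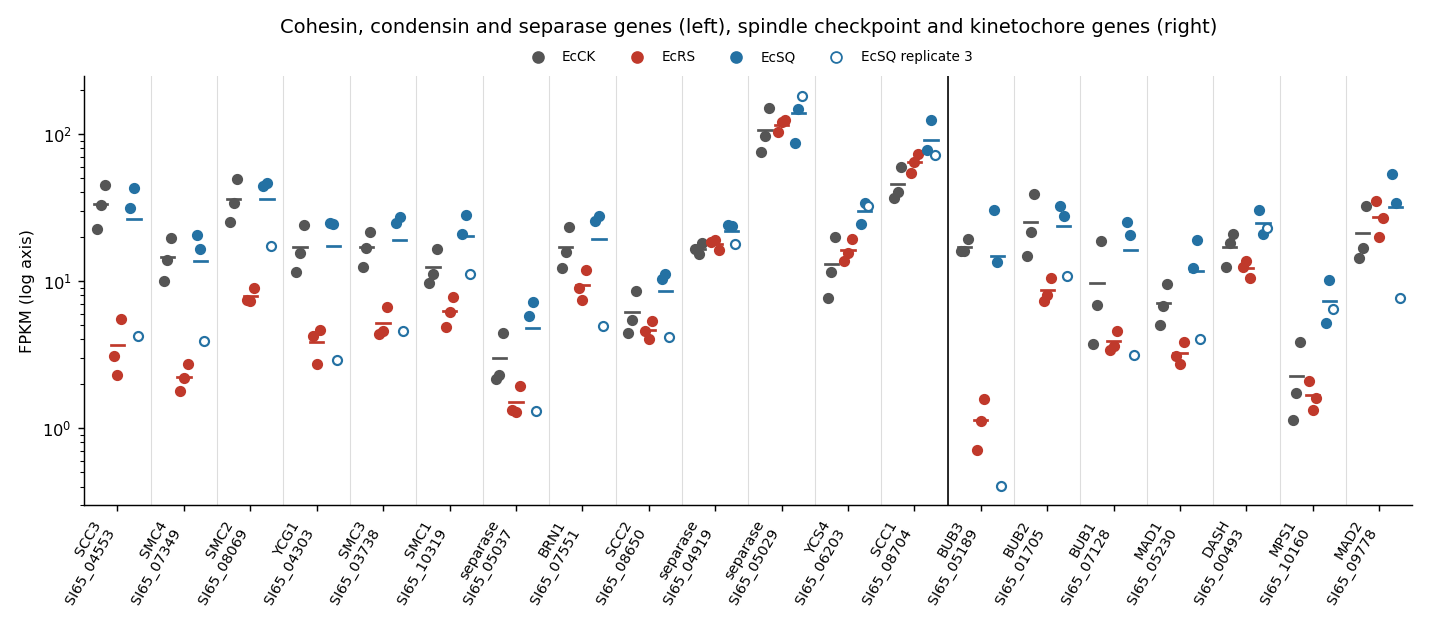
FPKM (log axis) of 13 cohesin, condensin and separase genes (left of the line) and 7 spindle checkpoint and kinetochore genes (right), each ordered by log2 fold change. Points are libraries, bars are group means and open circles are EcSQ replicate 3. *SCC3*, *SMC4*, *SMC2* and *BUB3* show EcRS below all EcCK libraries, while *SCC1*, the separase-coded SI65_05029 and *MAD2* do not.

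Mitotic exit and septation genes were mixed, with 3 down-regulated and 1 up-regulated of 10 tested (2 and 3 under TMM scaling). The shares (30% and 10%) stood beside 47.6% and 12.8% of all genes. SI65_06489, a gene with the MOB1 code (contig 7, positions 108227 to 109855), had 6.67, 9.91 and 15.4 FPKM in EcCK, 0.546, 0.675 and 0.838 in EcRS and 13.0, 11.5 and 1.96 in EcSQ. Its log2 fold change in EcRS was -3.95 ± 0.43 (edgeR adjusted p = 7.1e-05). The gene described as *mob1* itself (SI65_08534) had 54.2, 80.8 and 88.5 FPKM in EcCK and 45.4, 40.0 and 50.2 in EcRS and a log2 fold change of -0.72, under the 2-fold threshold. Of 4 genes with the code of LTE1, an exchange factor, SI65_10078 and SI65_02920 fell with log2 fold changes of -3.52 and -1.10 (the second -0.23 and not called with TMM scaling), and SI65_04524 and SI65_03190 did not pass (-0.20 and 0.59). The septation kinases *sid2* (SI65_04120) and *sepH* (SI65_03201) had -0.73 and -0.67 and did not pass, and neither did the GTPase gene *TEM1* (SI65_04407, 0.72).

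*CDC14* (SI65_02938, contig 2, positions 2156035 to 2158015), the phosphatase that undoes mitotic phosphorylation, went the other way. It had 10.5, 17.4 and 37.9 FPKM in EcCK, 51.2, 53.8 and 70.9 in EcRS and 70.0, 148 and 98.3 in EcSQ. Both root groups lay above all EcCK libraries. The log2 fold change of EcRS over EcCK was 1.42 ± 0.44 (edgeR adjusted p = 0.019), and the call was lost without EcCK replicate 2 (1.28) or EcRS replicate 3 (1.26). In EcSQ against EcCK the log2 fold change of *CDC14* was 2.27 ± 0.61 and did not pass (edgeR adjusted p = 0.074).

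Protein phosphatase genes, of which the members are PP1 and PP2A subunits that act in mitosis and meiosis, had 1 up- and 2 down-regulated among 7 tested (2 and 1 under TMM scaling). Their shares (14.3% and 28.6%) stood beside 12.8% and 47.6% of all genes. The PP2A catalytic subunit (SI65_05154) rose from 64.7, 87.4 and 129.9 FPKM in EcCK to 166, 207 and 255 in EcRS, a log2 fold change of 1.15 ± 0.32 (edgeR adjusted p = 0.011), and EcSQ had 175, 191 and 259. Without EcCK replicate 1 or EcRS replicate 3 this rise was 0.95 or 0.99, under 2-fold. A PP2A regulatory subunit B (SI65_02330) fell with a log2 fold change of -1.48, from 62.1, 96.2 and 271 to 46.0, 54.0 and 53.9 FPKM. That call was lost without EcCK replicate 3 (-0.63), without any one EcRS library (-1.52 to -1.41) and with TMM scaling (-0.52). A PP1 catalytic subunit gene (SI65_01612) fell from 19.1, 28.7 and 38.2 to 6.70, 5.30 and 6.98 FPKM (log2 fold change -2.18 ± 0.33, edgeR adjusted p = 0.00045).

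Among the genes of meiotic recombination and its regulators, 3 of 9 were up-regulated and 1 was down-regulated in EcRS (4 and 1 under TMM scaling). These shares (33.3% and 11.1%) stood beside 12.8% and 47.6% of all genes. Both copies of a *DMC1* pair were among the rises, and their reads could be split between copies. The rises may therefore hold 1 signal counted more than once. *DMC1*, the recombinase of meiotic chromosome pairing, is listed as a pair of genes of equal length in a mirrored stretch of contig 1, described further on. SI65_02122 had 22.4, 19.1 and 32.4 FPKM in EcCK, 54.8, 58.3 and 67.1 in EcRS and 37.8, 41.2 and 43.1 in EcSQ, with all root libraries above all EcCK libraries. SI65_01760 had 22.4, 24.9 and 32.9 FPKM in EcCK, 54.1, 57.2 and 62.1 in EcRS and 38.0, 42.5 and 42.7 in EcSQ, and it too had all root libraries above all EcCK libraries. Their log2 fold changes in EcRS were 1.28 ± 0.27 and 1.11 ± 0.24 (edgeR adjusted p = 0.0028 and 0.0034), and without EcCK replicate 1 the change of SI65_01760 was 1.00, at the edge of 2-fold. A component of the meiotic cohesin complex by its gene ontology terms (SI65_04129) had 2.94, 2.60 and 1.94 FPKM in EcCK, 5.38, 6.35 and 8.13 in EcRS and 6.54, 5.71 and 6.68 in EcSQ. The EcRS change was, in log2, 1.41 ± 0.32 (edgeR adjusted p = 0.0039).

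*SPO11*, *IME2* and *stuA*, which act earlier in meiosis or in spore formation, did not pass. *SPO11* (SI65_04913), which opens meiotic recombination, stayed low, with 1.47, 2.05 and 2.29 FPKM in EcCK, 2.21, 1.69 and 1.10 in EcRS and 3.62, 2.04 and 1.04 in EcSQ. The kinase *IME2* (SI65_08456) had a log2 fold change of -0.31 and *stuA* (SI65_03573), a regulator of spore-bearing structures in *Aspergillus nidulans*, of -0.52, with EcCK libraries as far apart as 50.0, 90.9 and 425 FPKM. A gene with the NDT80 code (SI65_06524), described as a p53-like transcription factor and among the 3 most expressed members in EcRS, had 82.6, 159.7 and 275 FPKM in EcCK, 266, 316 and 432 in EcRS and 640.2, 995 and 518 in EcSQ. Its log2 fold change in EcRS was 0.97 ± 0.43 (edgeR adjusted p = 0.075), and it did not pass with the per-million scaling. It was called up-regulated with TMM scaling (log2 fold change 1.88, edgeR adjusted p = 0.0019), with DESeq2 (1.91), with totals of the listed genes (1.19), with limma at a pseudocount of 1 or 0.1 (1.10 and 1.11) and without EcCK replicate 3 (1.48). With libraries of the same number treated as pairs (replicate block) it was called as well, at 1.11 and an edgeR adjusted p of 0.013, and at 1.94 with the block and TMM. SI65_00526, for which the table gives no name, fell by 2.49 on the log2 scale, from 37.7, 38.5 and 56.1 to 7.78, 7.38 and 8.41 FPKM.

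Nutrient and cAMP signalling genes decide in yeast between growth, rest and meiosis. In EcRS, 5 of the 8 tested were down-regulated and 1 was up-regulated (4 and 1 under TMM scaling). The shares (62.5% and 12.5%) stood beside 47.6% and 12.8% of all genes. SI65_08924, a kinase gene with the code of SNF1, the energy-stress kinase (contig 15, positions 281958 to 283549), had 120.3, 170.4 and 124 FPKM in EcCK, 5.44, 6.22 and 5.07 in EcRS and 36.7, 8.82 and 1.54 in EcSQ. All 6 root libraries were below all EcCK libraries. The EcRS change was, in log2, -4.63 ± 0.29 (edgeR adjusted p = 1.2e-05), and in EcSQ -3.14 ± 0.97 (edgeR adjusted p = 0.1). *RIM15* (SI65_02210), a kinase needed for entry into the resting state in budding yeast, had 6.13, 9.87 and 20.5 FPKM in EcCK, 0.794, 0.488 and 0.492 in EcRS and 10.9, 6.97 and 2.06 in EcSQ, a log2 fold change in EcRS of -4.36 ± 0.50 (edgeR adjusted p = 9.4e-05). Among the others that fell were 2 more genes with the SNF1 code (SI65_04600, whose gene ontology terms name a membrane protein and no kinase, -2.26, and SI65_07959, -1.90) and an adenylate cyclase gene (SI65_07091, -1.60), which was the call lost with TMM scaling (-0.68, edgeR adjusted p = 0.081). One of 2 cAMP-dependent protein kinase genes (SI65_08550) rose, from 48.2, 35.3 and 44.9 to 95.5, 91.8 and 109.6 FPKM (log2 fold change 1.21 ± 0.24, edgeR adjusted p = 0.0019). The other (SI65_03800) had -0.23 and did not pass.

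The cyclin among the members is a gene with the code of PHO80 (SI65_01255, contig 1, positions 3409665 to 3410996), which in budding yeast pairs with a kinase of the phosphate response. It had 52.1, 64.3 and 104 FPKM in EcCK, 195, 227 and 281 in EcRS and 103, 150.2 and 375 in EcSQ. Its log2 fold change in EcRS was 1.68 ± 0.32 (edgeR adjusted p = 0.0016), and every EcRS library was above every EcCK library. In the group of transcription factors and phosphate regulators it was the 1 up-regulated gene of 13 tested (all genes 12.8%). Beside it 2 were down-regulated (all genes 47.6%), and under TMM scaling 6 were up- and 1 down-regulated. Both genes that fell carry the code of PHO81, the inhibitor of the same kinase. SI65_07173 had 2.71, 2.39 and 8.48 FPKM in EcCK and 0.525, 0.222 and 0.268 in EcRS, a log2 fold change of -3.72 ± 0.64 (edgeR adjusted p = 0.00087). SI65_02582 fell from 185, 193 and 247 to 94.9, 99.99 and 99.2 FPKM, a log2 fold change of -1.09, and of -0.95 without EcCK replicate 3 and -0.24 with TMM scaling, neither of which was called. The PHO81-coded SI65_05984 and SI65_03033 did not pass (-0.69 and 0.47), and neither did the genes of the MBP1 type, a cell cycle transcription factor family (SI65_05110 and SI65_02885, -0.59 and -0.16). Of 3 genes with no placed role, SI65_07937 fell from 4.18, 6.89 and 9.07 to 0.207, 0.340 and 0.628 FPKM, a log2 fold change of -4.09.

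Of the 23 sugar transporters tested in EcRS, 16 were down-regulated, 3 were up-regulated and 4 did not pass, and 6 were below the level filter. Among all genes 47.6% were down-regulated and 12.8% up-regulated. Under TMM scaling 13 transporters were down-regulated and 5 up-regulated, beside 31.4% and 26.4% of all genes. Summed over the 29 genes, they reached 1368, 1586 and 1382 FPKM in EcCK, 617, 722 and 676 in EcRS, and 1367, 1168 and 699.7 in EcSQ. SI65_06685 had 16.5, 4.59 and 2.26 FPKM in EcCK, no count in the 3 EcRS libraries, and 1.63, 0.427 and 0 in EcSQ. With 3 counts per library put in place of each 0, it was 82.7-fold lower in EcRS on the ratio of mean FPKM. Without EcCK replicate 1 it was 36.4-fold lower (a choice made after the data were seen). The counts are derived from coverage and sum to more than the reads the study lists, so neither value is a strict lower limit. SI65_00042 had 8.94, 12.3 and 12.6 FPKM in EcCK and 0.0705, 0.246 and 0 in EcRS, a log2 fold change of -6.70 that rests on 9, 27 and 0 estimated counts in EcRS (edgeR adjusted p = 0.00028). The most expressed transporters in EcCK also fell. SI65_04387 went from 242, 437 and 298 to 55.7, 54.1 and 65.4 FPKM (log2 fold change -2.48 ± 0.31, edgeR adjusted p = 0.00014), with 119, 91.4 and 113 in EcSQ.

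The 3 transporters that rose in EcRS were of low or moderate level. SI65_03808 went from 0.221, 0.520 and 0.178 FPKM in EcCK to 2.59, 2.51 and 1.96 in EcRS, a log2 fold change of 2.91 ± 0.51 (edgeR adjusted p = 0.00093), from 13 to 38 estimated counts per EcCK library. SI65_03605 went from 11.7, 15.5 and 17.3 to 28.4, 29.5 and 37.9 FPKM (log2 fold change 1.11 ± 0.26), which was 0.96 without EcCK replicate 1 and 0.97 without EcRS replicate 3. SI65_01485 went from 0.840, 0.496 and 0.686 to 1.47, 1.77 and 1.18 FPKM (log2 fold change 1.12 ± 0.41, edgeR adjusted p = 0.036). That call was lost when libraries of the same number were treated as pairs (replicate block, adjusted p = 0.068) and without EcCK replicate 2 (0.94), and without EcRS replicate 1 or 2 the gene was below the level filter. The members below the level filter were 6 transporters and the short CHK1-coded gene, all with means of at most 1.09 FPKM in every group.

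**Figure D4:**
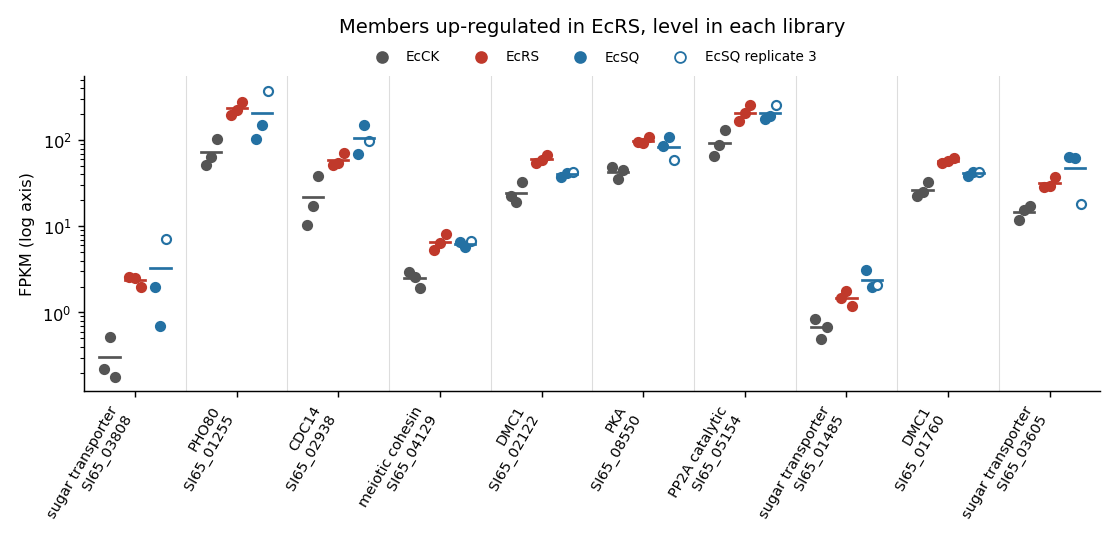
FPKM (log axis) of the 10 members up-regulated in EcRS, ordered by log2 fold change. Points are libraries, bars are group means and open circles are EcSQ replicate 3. All EcRS points lie above all EcCK points in each gene, and the EcSQ points lie above the EcCK mean in each gene although none was called in EcSQ.

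Part of contig 1 is listed as a pair of stretches in mirrored order, which affects 6 pairs of members. Over positions 4797281 to 5785360, 121 pairs of genes with equal length and exon number lie on opposite strands in mirrored order. The member pairs are both *DMC1* genes, a pair of PP1 catalytic subunits, a pair with the code K06646 and 3 pairs of sugar transporters. Their FPKM differed between copies by a median of 1.03% to 4.02%, so reads could be split between copies in the counting, and the level of each copy is uncertain. Counting each pair once, a choice made after the data were seen, gave 49 down- and 9 up-regulated of 104 tested in EcRS. Among all genes tested, 47.6% were down-regulated and 12.8% up-regulated.

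On *P. notoginseng* almost no member passed. In EcSQ against EcCK, 2 of 109 tested members were down-regulated and none was up-regulated (all genes 1.87% and 1.72%), with a median log2 fold change of 0.17 beside -0.01 for all genes. At an unadjusted p of at most 0.05 and 2-fold, edgeR gave 15 up and 12 down, with no share over all genes computed. With adjustment, limma on log2(FPKM + 1) gave 2 and 3 (all genes 2.81% and 3.70%). DESeq2 gave 18 and 9 (all genes 13.9% and 11.3%). The pair called was a single mirrored pair of sugar transporters. SI65_01919 had 312, 259 and 197 FPKM in EcCK, 31.5, 35.7 and 35.9 in EcSQ and 26.2, 44.5 and 34.9 in EcRS, with both root groups below EcCK. Its copy SI65_01963 had 309, 256 and 196 FPKM in EcCK, 31.9, 35.8 and 36.7 in EcSQ and 29.6, 45.2 and 34.8 in EcRS. They were the highest members in EcCK together with SI65_04387. Levels on both roots were close to each other and far below EcCK. The log2 fold changes in EcSQ were -2.90 ± 0.45 and -2.87 ± 0.45 (edgeR adjusted p = 0.021 for both), and in EcRS, with the same EcCK libraries, -2.86 ± 0.32 and -2.80 ± 0.30 (edgeR adjusted p = 8e-05 and 7.1e-05). The EcSQ calls were lost without EcCK replicate 1 or 2 or EcSQ replicate 2, with values of -2.92 to -2.70 and edgeR adjusted p of 0.085 to 0.15.

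None of the 49 other members down-regulated in EcRS was called in EcSQ, and replicate 3 of EcSQ stood apart from replicates 1 and 2. Without it, 5 members were up-regulated and 9 down-regulated in EcSQ (all genes 9.88% and 6.69%), among them *CDC14* (2.32), the NDT80-coded SI65_06524 (2.24), *CDC45* (1.72) and SI65_03605 (2.09) up, and the SNF1-coded SI65_08924 (-2.60), the CHK2-type SI65_05815 (-1.67) and SI65_00526 (-1.48) down. *CDC45* was thus higher in EcSQ replicates 1 and 2 than in EcCK and lower in EcRS. Of the 51 members down-regulated in EcRS, EcSQ replicate 3 lay below all EcCK libraries in 48, replicate 1 in 14 and replicate 2 in 19. Over all genes down-regulated in EcRS the shares were 94.1%, 34.9% and 62.3%. Replicate 2 thus lay below EcCK in a smaller share of these members than of all such genes. Replicate 3 lay nearer to the EcRS mean than to the EcCK mean in 45 of the 51, against 6 for replicate 1 and 11 for replicate 2. Among all 4251 genes down-regulated in EcRS, replicate 3 was nearer to EcRS in 91.2%, replicate 2 in 34.3% and replicate 1 in 14.9%, so the same order of the libraries was seen over all genes.

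**Figure D5:**
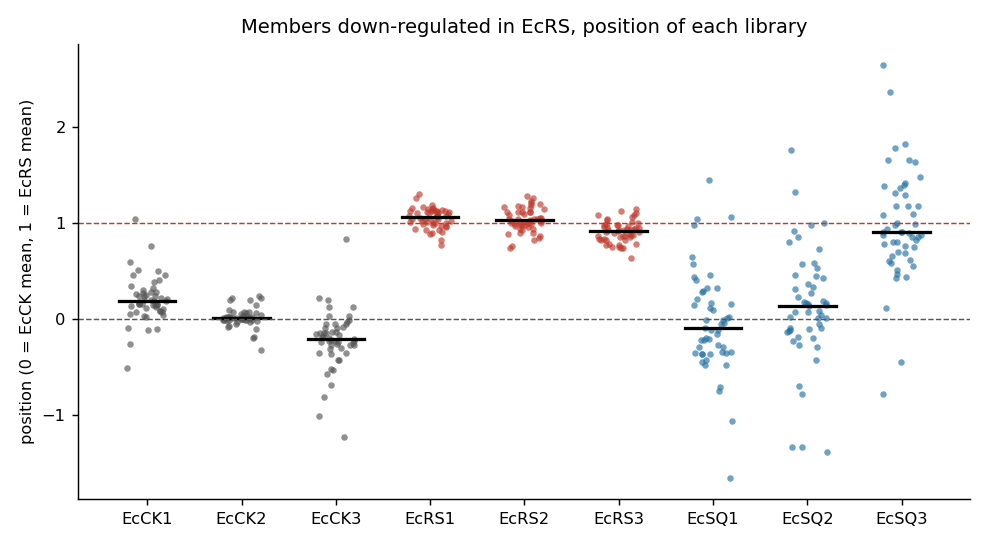
Position of each library for the 51 members down-regulated in EcRS, on a scale where 0 is the EcCK mean and 1 the EcRS mean of log2(FPKM + 0.1). Each point is a gene and bars are medians. EcSQ replicates 1 and 2 have medians of -0.10 and 0.13, near EcCK, and EcSQ replicate 3 has 0.90, near EcRS.

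The direct comparison of the root species gave no called member. In EcRS against EcSQ, 0 of 107 tested members were down-regulated and 0 up-regulated (all genes 0% and 0.0342%), with a median log2 fold change of -0.90 beside -0.84 for all genes. At an unadjusted p of at most 0.05 and 2-fold, edgeR gave 39 lower in EcRS and 0 higher, with no share over all genes computed. With adjustment, limma gave 0 and 0 (all genes 0% and 0.0342%), and DESeq2 gave 20 and 1 (all genes 12.1% and 5.21%). Without EcSQ replicate 3, 58 members (54.2%) were lower in EcRS and none was higher (all genes 49.8% and 4.23%). They included 9 of the 10 origin genes, 9 of the 13 cohesin, condensin and separase genes and 6 of the 7 spindle checkpoint and kinetochore genes. Counts were 4 of 6 for DNA checkpoint, 5 of 8 for nutrient signalling, 11 of 21 for sugar transporters and 2 of 3 for unplaced genes. Lower shares were seen in mitotic exit and septation (4 of 10) and protein phosphatases (2 of 7). The same held for meiotic recombination and regulators (3 of 9) and transcription factors and phosphate regulators (3 of 13). Of the 58 members, 43 were also down-regulated in EcRS against EcCK, with the EcRS libraries shared by both comparisons.

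Libraries of one group differed more in some groups than in others. The median standard deviation of log2(FPKM + 1) over the members was 0.43 in EcCK, 0.21 in EcRS and 0.71 in EcSQ, beside 0.39, 0.21 and 0.88 over all genes. In EcCK, replicate 3 was the highest library in 92 of the 109 tested members (84.4%, all genes 66.8%) and replicate 1 the lowest in 89. The median level of the members that are not sugar transporters was 14.4, 18.0 and 32.4 FPKM in EcCK, 9.89, 9.54 and 10.6 in EcRS, and 27.1, 28.3 and 12.9 in EcSQ. Without EcCK replicate 3, 43 members were down-regulated and 15 up-regulated in EcRS (all genes 43.8% and 16.9%), and the origin genes kept 8 of 8 calls. The 116 members lay on 24 of the 54 contigs and had a median listed coding length of 1659 bases, against 1176 for all genes. The members most expressed in EcRS were the PHO80-coded cyclin, the NDT80-coded gene and the PP2A catalytic subunit, at 234 ± 43.2, 338 ± 85.4 and 209 ± 44.4 FPKM (SD, n = 3).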

How the data were processed

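RNA was sequenced from 9 libraries of *A. cristatus* JLU. In the deposited table the authors gave each of 10227 genes an estimated count and an FPKM value per library. HISAT2 2.0, StringTie 1.3.0 and Bowtie 0.12.2 are named in the submitters' processing notes without their roles. The estimated counts follow FPKM times coding length within a library (deviation of at most 0.486% for genes with at least 200 counts), so they are derived from coverage. In every EcCK and EcRS library they sum to more than the valid reads the study lists. A small count therefore stands for fewer sequenced fragments than its number. Positions and contigs are those of the deposited table, whose assembly was not settled. Listed lengths are coding lengths.

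The quasi-likelihood test of edgeR 4.0.16 (R 4.3.3) was run on rounded counts between the 6 libraries of each comparison, with the per-million factor recovered from the FPKM as library size, on genes averaging 1 FPKM or more. P-values were adjusted by Benjamini-Hochberg over all genes tested. Deviations from the group means of EcRS and EcCK libraries with the same number had r = 0.12, 0.20 and 0.29, against -0.28 to 0.20 for other pairs. These ranges overlap and the labels name no pairing, so pairing was not shown and a replicate block served only as an alternative. Alternatives were TMM and listed-gene scaling, DESeq2 1.42.0, limma 3.58.1 on log2(FPKM + a pseudocount of 0.1, 1 or 5), other filters, counts divided by 4, a replicate block, all 9 libraries in one fit, and leaving out each library. The members, roles and lists were chosen with earlier results of these data known. Named by rule were the called members with the largest changes in each role, all members up-regulated in EcRS, the most expressed members, and the cyclin, cohesin, condensin and spindle checkpoint genes. Others were named after their values were seen.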

Additional observations from a re-analysis of the deposited data

How the results depend on the processing

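In EcRS against EcCK, up-regulated members numbered 25 with TMM scaling, 27 with DESeq2 and 26 with TMM and a replicate block (all genes 26.4%, 27.2% and 26.8%). Limma on log2(FPKM + 5) gave 5 up-regulated and 33 down-regulated members. Leaving out 1 library gave 7 to 15 up-regulated, with 15 without EcCK replicate 3 (all genes 16.9%). The members' median log2 fold change moved from -0.80 to 0.05 with TMM and 0.08 with DESeq2. With the replicate block, 9 of 10 rises and 51 of 51 falls kept their call and 1 rise was new. In EcSQ against EcCK, up-regulated members numbered 2 with TMM, 18 with DESeq2 and 1 with TMM and the block (all genes 4.71%, 13.9% and 0.917%). Limma gave 2 at a pseudocount of 1 (all genes 2.81%) and 2 at 5, and all 9 libraries in one fit gave 7. Down-regulated members numbered 6 with TMM, 9 with DESeq2, 0 with the replicate block and 1 with the block and TMM (all genes 4.90%, 11.3%, 0.273% and 2.19%). Limma at a pseudocount of 5 gave 4 down-regulated and all 9 libraries gave 7. There were 0 without sugar transporters and 1 without second mirrored copies (the latter exclusions chosen after seeing the data). Leaving out 1 library gave 0 to 5 up- and 0 to 9 down-regulated, with 5 and 9 without EcSQ replicate 3 (all genes 9.88% and 6.69%). In EcRS against EcSQ, DESeq2 gave 1 up- and 20 down-regulated (all genes 5.21% and 12.1%), and all 9 libraries in one fit gave 18 down-regulated. Leaving out 1 library gave 0 to 58 down-regulated, with 58 without EcSQ replicate 3 (all genes 49.8%). No share over all genes was computed for limma at a pseudocount of 5, all 9 libraries in one fit or the other left-out libraries. Pairing of libraries with the same number was not shown in the comparisons with EcSQ either (r = -0.05, -0.04 and -0.11 with EcCK, 0.21, -0.17 and -0.11 with EcRS). No named call changed to the opposite direction, while 115 of 1919 named values that passed in neither fit had another sign. In EcSQ against EcCK the balance of the counts changed, from 0 up- and 2 down-regulated to 18 and 9 with DESeq2. The cause of these shifts was not tested. Genes near 0 in EcRS, such as *ORC1* (3 to 26 counts), are limited by depth.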
